A study of Mus musculus with 6 samples.

Results

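The genes described here are 10 muscle-type forms of energy-supplying proteins, followed in mouse cochlea, the coiled part of the inner ear that detects sound. They are the creatine kinases Ckm and Ckmt2, the glycolytic and glycogen enzymes Pgam2, Eno3, Pygm and Pfkm, the oxygen-binding protein Mb (myoglobin), and the cytochrome c oxidase subunits Cox6a2, Cox7a1 and Cox8b. They were found on the array as every probe set whose annotation gave exactly 1 of these symbols, which yielded 11 of the 22626 probe sets, 1 for each gene and 2 for Mb, out of 12393 genes with such a probe set. The samples were 3 of cochlea from male DBA/2J mice aged 36 weeks and 3 from male DBA/2J mice aged 7 weeks, and no agent or mutation besides the strain is given for either age. Mice of this inbred strain become deaf while still young adults. Total RNA of each sample was hybridised to 1 single-colour Affymetrix array. The labels do not say whether a sample pooled several animals or whether samples came from separate animals, and the design text states that replicates were not run, so the p-values measure only the spread between these samples, which may be technical. The comparison, 36 weeks against 7 weeks, addressed which transcripts differ with age-related hearing loss.

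Muscle carries its own versions of many energy enzymes: a mitochondrial and a cytosolic creatine kinase pass phosphate between ATP and creatine, and muscle phosphorylase, phosphofructokinase, phosphoglycerate mutase and enolase take glycogen through glycolysis. Cytochrome c oxidase, complex IV of the respiratory chain, has subunits 6A, 7A and 8 in a heart and muscle form and in a form found in most tissues. The sensory tissue of the cochlea has no skeletal muscle, and the nearest are the tensor tympani and stapedius muscles of the middle ear.

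The arrays had median signals of 844.0 to 859.4 at 36 weeks and 766.3 to 800.5 at 7 weeks, and no 2 arrays held the same values. Within an age, arrays correlated at 0.954 to 0.957 across tested probe sets on the log2 scale, and between ages at 0.828 to 0.838. Of 11 tested cochlear marker genes 9 were lower and 0 higher at 36 weeks, against 17.6% lower and 17.5% higher over all tested genes. The smallest p-values were those of Otos (otospiralin) and Coch (cochlin), proteins of cochlear fibrocytes, with mean signals of 13801 and 21556 at 36 weeks and 73912 and 82144 at 7 weeks. The summed signal of the 14 cochlear markers ran from 54766 to 54913 at 36 weeks and from 215464 to 223726 at 7 weeks. The hair cell genes Slc26a5 (prestin) and Pou4f3 were under the filter on low signals. All 10 granulocyte genes were higher at 36 weeks, with the smallest p-values for S100a9 and Ltf, cytosolic and granule proteins of neutrophils, whose log2 differences were 3.74 and 3.65 (list median 3.90). Their summed signal ran from 715284 to 763221 at 36 weeks and from 48909 to 54371 at 7 weeks. Each signal is relative to the others on its array, since the arrays share 1 trimmed mean. The part of these other cell types in the results below was not tested, and with 3 arrays per age the precision of each value is limited by that number.

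All 10 genes were lower at 36 weeks by limma with Benjamini-Hochberg adjustment, and for each of them every 36-week array lay below every 7-week array. Among all 8555 tested genes, 17.6% were called lower, 17.5% higher, and 24.2% lay below in all 9 pairs of arrays. By probe set, 10 of 10 tested were called lower, against 17.7% of the 13575 tested, and the remaining one of the 11, of Mb, was not tested. The median log2 difference of the 10 genes, 36 weeks minus 7 weeks, was -1.54, against 0.02 over all tested genes. The falls were graded: Pgam2 kept 12.0% of its 7-week mean signal, Ckmt2 17.1%, Cox7a1 27.1%, Mb 29.2%, Cox8b 33.4%, Cox6a2 34.4%, Eno3 38.5%, Ckm 55.0%, Pygm 65.5% and Pfkm 84.6%. At least 2-fold lower and past the test were 7 of the 10, against 4.51% of all tested genes. In bulk tissue, fewer muscle fibres in a sample and less RNA per fibre cannot be told apart.

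**Figure D1:**
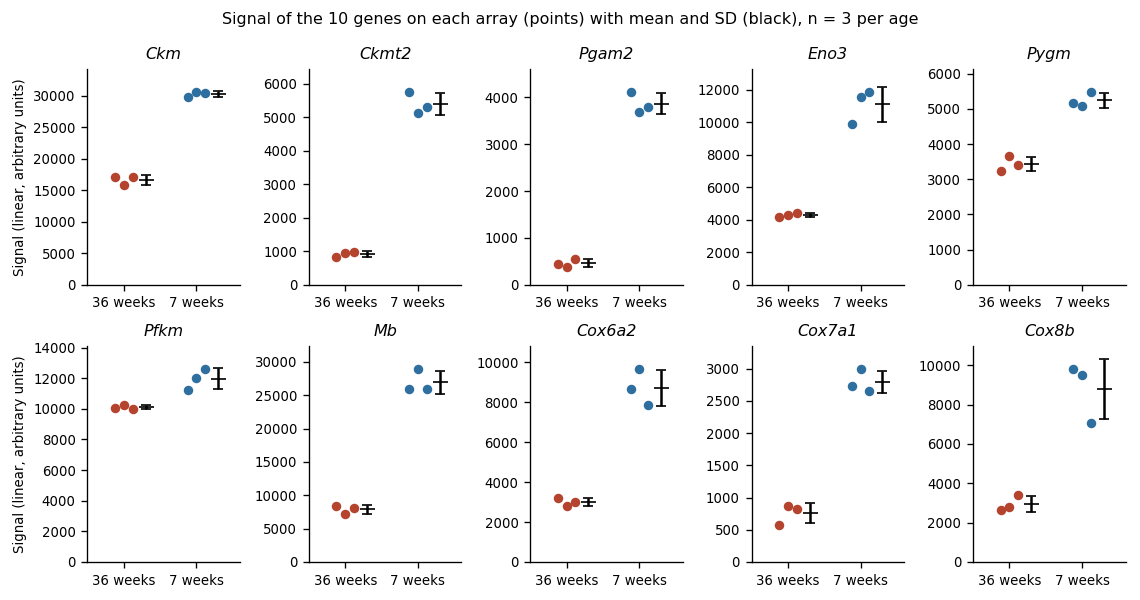
Linear signal of the 10 genes on each array (points, in arbitrary units, each axis from 0), with mean and SD beside them; 3 arrays at 36 weeks stand left of 3 arrays at 7 weeks in each panel. The ages do not overlap in any panel, with the widest separation for Pgam2 and Ckmt2 and the narrowest for Pfkm.

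The 2 creatine kinases fell by different amounts. Ckm, the cytosolic enzyme of muscle, which also sits at the M line of the sarcomere, had signals of 17059, 15816 and 17177 on the 36-week arrays, against 29777, 30644 and 30553 on the 7-week arrays. It was 1.82-fold lower, a log2 difference of -0.86 ± 0.06 (SE, n = 3 per age; adjusted p = 2.81e-06). Ckmt2, the sarcomeric mitochondrial enzyme, had signals of 821.6, 954.1 and 992.6 at 36 weeks, against 5761, 5132 and 5304 at 7 weeks. Its 36-week signals lay close to the array medians, whereas those of 7 weeks were far above them. The log2 difference of Ckmt2 was -2.49 ± 0.12 (adjusted p = 1.25e-07), or 5.85-fold lower.

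The glycolytic and glycogen enzymes held the extremes of the set. Pgam2, the muscle phosphoglycerate mutase, had signals of 452.7, 381.4 and 555.4 at 36 weeks, against 4114, 3681 and 3796 at 7 weeks. All 3 values at 36 weeks were below the array medians, while those of 7 weeks were far above them. The log2 difference was -2.94 ± 0.16 (adjusted p = 3.27e-07), and 11 of the 8555 tested genes had a lower one. The 36-week mean of Pgam2, 463.2, was under the filter signal of 593.6, so it was tested and ranked only through its 7-week signals. Without a filter the limma adjusted p was 2.84e-06. Eno3, the muscle enolase, had signals of 4166, 4291 and 4384 at 36 weeks, against 9888, 11569 and 11865 at 7 weeks, a log2 difference of -1.36 ± 0.09 (adjusted p = 1.41e-06). Its arrays of 36 weeks were close together, with an SD of 109.5, against 1066 at 7 weeks.

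Pygm, the muscle glycogen phosphorylase whose loss causes McArdle disease in humans, had signals of 3237, 3650 and 3417 at 36 weeks, against 5158, 5088 and 5484 at 7 weeks. It was 1.53-fold lower, a log2 difference of -0.60 ± 0.09 (adjusted p = 0.000528), and the ages did not overlap. Pfkm, the phosphofructokinase of muscle that brain and other tissues also use, had signals of 10053, 10269 and 10000 at 36 weeks, against 11232, 12026 and 12589 at 7 weeks. This was the smallest fall of the set, 1.18-fold, with a log2 difference of -0.24 ± 0.07 and a 95% confidence interval from -0.40 to -0.08 (adjusted p = 0.0257). The call of Pfkm was lost without any of 5 of the 6 arrays, with adjusted p-values of 0.0545 to 0.0755, the exception being the first 7-week array. It was also lost with quantile normalization (-0.15, adjusted p = 0.131) and with a variance prior that ignores intensity (adjusted p = 0.115).

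Mb, which stores oxygen in oxidative fibres and the heart, was measured by 2 probe sets. The bright one had signals of 8380, 7151 and 8083 at 36 weeks, against 25878, 28908 and 25998 at 7 weeks. It was 3.42-fold lower, a log2 difference of -1.77 ± 0.08 (adjusted p = 9.58e-08), the smallest adjusted p of the set. The dim one had 580.6, 166.7 and 213.2 at 36 weeks, against 203.9, 213.6 and 81.2 at 7 weeks, so its ages overlapped. Its mean was under the filter on low signals, and it was not tested. With the mean of both probe sets as the value of the gene, Mb had a log2 difference of -0.55 and did not pass (adjusted p = 0.0975).

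The 3 subunits of complex IV all fell. These small nuclear-encoded proteins surround the catalytic core that mitochondrial DNA encodes. Cox6a2 had signals of 3189, 2810 and 3023 at 36 weeks, against 8678, 9659 and 7860 at 7 weeks, a log2 difference of -1.52 ± 0.10 (adjusted p = 1.42e-06). Cox8b had 2630, 2783 and 3392 at 36 weeks, against 9806, 9508 and 7051 at 7 weeks, and differed by -1.56 ± 0.14 (adjusted p = 1.41e-05). The third 7-week array held the lowest value of that age for each of the 3 subunits. Cox7a1 had 576.5, 875.4 and 820.7 at 36 weeks, against 2729, 2993 and 2656 at 7 weeks, and differed by -1.83 ± 0.17 (adjusted p = 1.69e-05). The first 36-week array was the lowest for Cox7a1, and of all 10 genes this one had the widest standard error.

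In the order of their falls, neighbouring genes were compared by the log2 ratio of their signals on each array. The ratio overlapped between the ages for Cox7a1 and Mb, Mb and Cox8b, Cox8b and Cox6a2, and Cox6a2 and Eno3, whose differences were at most 0.21 on the log2 scale. Among these 5 genes the ratio overlapped in 7 of 10 pairs. It did not overlap for Cox7a1 and Eno3, Mb and Cox6a2, or Mb and Eno3, where the gene named first fell more. The ratio did not overlap for Pgam2 and Ckmt2, Ckmt2 and Cox7a1, Eno3 and Ckm, Ckm and Pygm, or Pygm and Pfkm. Each of these neighbouring pairs had an exact permutation p of 0.1, the lowest that 3 arrays against 3 can give. After Benjamini-Hochberg adjustment over the 9 neighbouring pairs it was 0.18, so the order is not established. The order came from these same data, and the share of non-overlapping ratios over other pairs of genes was not computed. Within an age the 10 genes did not follow 1 array. The third 36-week array was the highest of its age for 5 genes and the lowest for 1, and the mean deviation of the 10 genes from their age mean ran from -0.06 to 0.08 at 36 weeks and from -0.04 to 0.04 at 7 weeks.

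**Figure D2:**
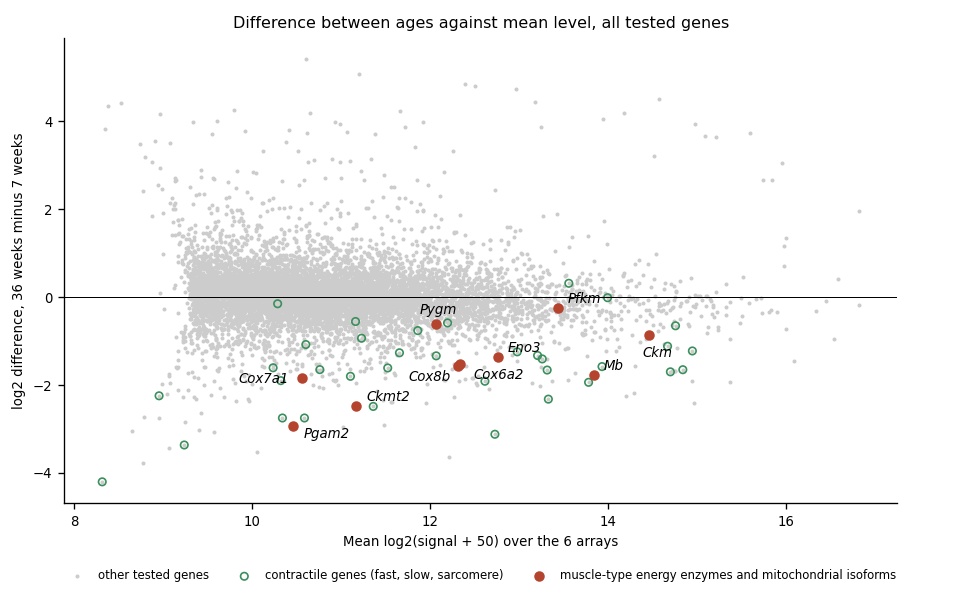
Log2 difference, 36 weeks minus 7 weeks, against the mean log2(signal + 50) of each of 8555 tested genes (grey points). Filled points are the 10 muscle-type genes and open circles the 35 tested genes listed as contractile, some of them calcium-handling genes. The 10 genes lie below 0, from -0.24 for Pfkm to -2.94 for Pgam2, in the same range as most contractile genes.

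Each muscle-type gene was set beside a counterpart, either the form of the same protein that other tissues use or a related protein. The related proteins were Cygb and Ngb, other globins set beside Mb, and Cox7a2l, set beside Cox7a1 in addition to Cox7a2. Of 13 counterpart genes with a tested probe set 5 were called lower, 3 higher and 5 did not pass, with a median log2 difference of -0.14. Over all tested genes 17.6% were called lower and 17.5% higher. Ngb (neuroglobin) was too dim to be tested. Ckb, the brain-type creatine kinase, had signals of 26980, 24991 and 27738 at 36 weeks, against 30406, 30065 and 31719 at 7 weeks, a log2 difference of -0.21 ± 0.06 (adjusted p = 0.0257). That call was lost with quantile normalization (-0.05, adjusted p = 0.615). Ckmt1, the mitochondrial creatine kinase of brain and other tissues, differed by -0.54 ± 0.12 at its brighter probe set and by 0.44 ± 0.15 at the other, each past the test. Pgam1, the mutase of most tissues, differed by -0.14 ± 0.09 and did not pass (adjusted p = 0.254).

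Counterparts of Eno3 and Pygm were higher at 36 weeks. Eno2, the enolase of neurons, had signals of 10554, 9897 and 10053 at 36 weeks, against 7174, 7179 and 7262 at 7 weeks, a log2 difference of 0.49 ± 0.07 (adjusted p = 0.000381). Pygl, the liver-type glycogen phosphorylase that leukocytes also express, had 4116, 4167 and 4050 at 36 weeks, against 1060, 1300 and 861.2 at 7 weeks. It was 3.83-fold higher, a log2 difference of 1.91 ± 0.15 (adjusted p = 4.91e-06), the opposite direction to Pygm. The granulocyte signals given above were also higher at 36 weeks. Pygb, the brain-type phosphorylase, differed by 0.57 ± 0.21 without passing (adjusted p = 0.0569), and was called higher with quantile normalization (adjusted p = 0.0475). Eno1 had no probe set with a single symbol and was not analysed here.

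The pair of Pfkm and Pfkl depended on the probe set. Pfkl, the liver-type subunit, differed by -0.32 ± 0.09 at its brighter probe set (adjusted p = 0.0224) and by 0.11 ± 0.11 at the other, which did not pass (adjusted p = 0.5). Pfkp, the platelet-type subunit, was higher by 0.44 ± 0.12 (adjusted p = 0.0159), a call lost when arrays were centred on their medians (adjusted p = 0.0564). The log2 ratio of Pfkm over Pfkl differed by 0.08 (exact permutation p = 0.4, two-sided), and its values overlapped between the ages. With the other probe set of Pfkl it differed by -0.35 with no overlap. The ratio of Pfkm over Pfkp differed by -0.68 with no overlap.

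In complex IV, 2 of the 4 counterpart genes were called lower and 2 did not pass. Cox6a1 had signals of 33147, 36816 and 35494 at 36 weeks, against 37320, 38925 and 36589 at 7 weeks, and its log2 difference of -0.10 ± 0.06 did not pass (adjusted p = 0.25). Cox8a differed by 0.03 ± 0.07 without passing (adjusted p = 0.731), with a 95% confidence interval from -0.11 to 0.18. With quantile normalization it was called higher by 0.24 (adjusted p = 0.0114). Cox7a2 was lower, with a log2 difference of -0.34 ± 0.06 (adjusted p = 0.00154), and Cox7a2l, which helps assemble supercomplexes of the respiratory chain, had -0.51 ± 0.10 (adjusted p = 0.00317). On each array the muscle subunit was set over its counterpart: the log2 ratio differed by -1.42 for Cox6a2 over Cox6a1, by -1.49 for Cox7a1 over Cox7a2, by -1.32 for Cox7a1 over Cox7a2l and by -1.59 for Cox8b over Cox8a. Cygb, a globin of fibroblast-like cells set against Mb, differed by -0.40 ± 0.14 and did not pass (adjusted p = 0.0519). It was called lower with quantile normalization (adjusted p = 0.0301) and with median centring (adjusted p = 0.0167).

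Across the 13 pairs, each at the brightest probe sets, the log ratio of muscle form over counterpart was lower at 36 weeks for 12, with no overlap between the ages in those 12. Each muscle form was by itself lower in all 9 pairs of arrays, so non-overlap of most ratios was likely beforehand. The share of non-overlapping ratios over other pairs of genes was not computed. The largest difference was -2.80 for Pgam2 over Pgam1 and the smallest of the 12 was -0.65 for Ckm over Ckb. With 3 arrays against 3, the exact permutation test (two-sided) cannot give a p below 0.1. That value was reached by those 12 pairs, 0.108 after Benjamini-Hochberg adjustment over the 13. Pairs that share a muscle gene are not independent of each other.

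**Figure D3:**
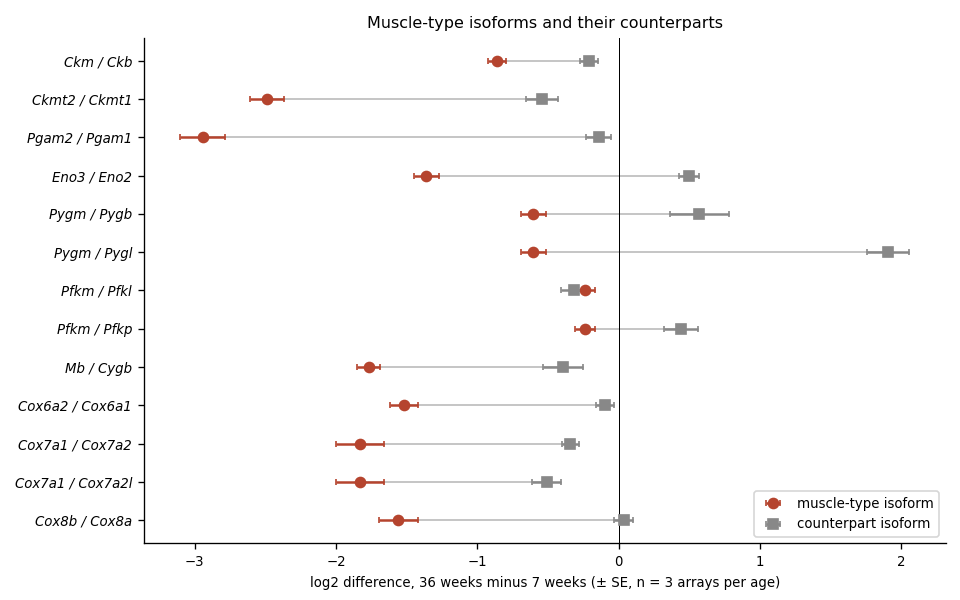
Log2 difference, 36 weeks minus 7 weeks, of each muscle-type isoform (circles) and its counterpart (squares). Error bars are the SE of the limma fit, with n = 3 arrays per age. In 12 of 13 pairs the circle lies left of the square, and in the pair of Pfkm and Pfkl the 2 marks lie close together.

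The contractile genes of skeletal muscle fell beside the energy genes. Of 35 tested contractile genes 31 were lower at 36 weeks and 1 was higher, with a median log2 difference of -1.61 and quartiles of -1.93 and -1.10. Over all tested genes 17.6% were lower. The list called contractile here also holds calcium-handling genes, such as Atp2a1, Casq1, Ryr1, Trdn and Pvalb, and the chaperone Cryab. Their summed signal ran from 191337 to 200034 at 36 weeks and from 479937 to 500955 at 7 weeks. All 12 tested fast-fibre genes were lower, with a median of -1.62. Tnni2, a fast troponin, and Mylpf, a fast myosin light chain, had log2 differences of -1.94 ± 0.07 and -2.32 ± 0.09. Of 9 tested slow-fibre genes 7 were lower, with a median of -2.25, among them Myl2 (-2.75 ± 0.17) and Tnnc1 (-1.90 ± 0.14), parts of slow and cardiac thick and thin filaments. The other 2 were Tpm3, a tropomyosin made in many tissues, and Atp2a2, a calcium pump of slow fibres, heart and many other cells. Tpm3 was higher by 0.31 ± 0.11 (adjusted p = 0.0415), a call lost when arrays were centred on their medians. Atp2a2 did not pass, with -0.01 ± 0.06 (adjusted p = 0.899). Of the lower slow-fibre genes, Myl3, Tnnt1, Tnni1, Myh7 and Myl2 had 36-week means under the filter signal of 593.6, from 24.6 (Myl3) to 550.6 (Myl2). They passed the filter only through their 7-week signals and also count among the 35. The slow-fibre median of -2.25 is the value of Tnni1, whose 36-week mean was 215.1. Of 14 tested genes listed as common to sarcomeres, Ryr1, Trdn and Cryab among them, 12 were lower and 0 higher. Acta1, skeletal actin, had -1.65 ± 0.07 and Tcap, a Z-disc protein, had -1.91 ± 0.10.

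Of 8 genes typical of the heart 3 passed the filter on low signals, and none of them was called lower. Actc1 (cardiac actin) and Myl4 (an atrial light chain) did not pass the test, with log2 differences of -0.38 and 0.09. Nppb, a natriuretic peptide, was higher by 1.15. The 7-week mean of Nppb, 416.5, was under the filter signal, so it was tested only through its 36-week signals. The defining heart genes Myh6, Tnni3 and Tnnt2 had mean signals of 132.8, 77.7 and 81.9 at 36 weeks and 130.0, 62.6 and 230.5 at 7 weeks, far below the array medians.

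Set against the contractile genes on the same array, the energy genes fell more, less or by a like amount. Each gene was centred on its own mean over the 6 arrays, and the median of the 35 contractile genes on that array was subtracted. Ckm, Pygm and Pfkm stood higher at 36 weeks on this relative scale, by 0.69, 0.95 and 1.32. For each of these 3 genes every 36-week array lay above every 7-week array, and their falls were smaller than that of the median contractile gene. Pgam2 and Ckmt2 stood lower, by -1.39 and -0.93, again with no overlap, and Mb stood slightly lower, by -0.21, without overlap. Eno3, Cox6a2, Cox8b and Cox7a1 differed by 0.19, 0.04, -0.00 and -0.28, and their ages overlapped. No test was run on this scale, and the share of all tested genes without overlap on it is not given. The absence of overlap is therefore only a description of these arrays.

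**Figure D4:**
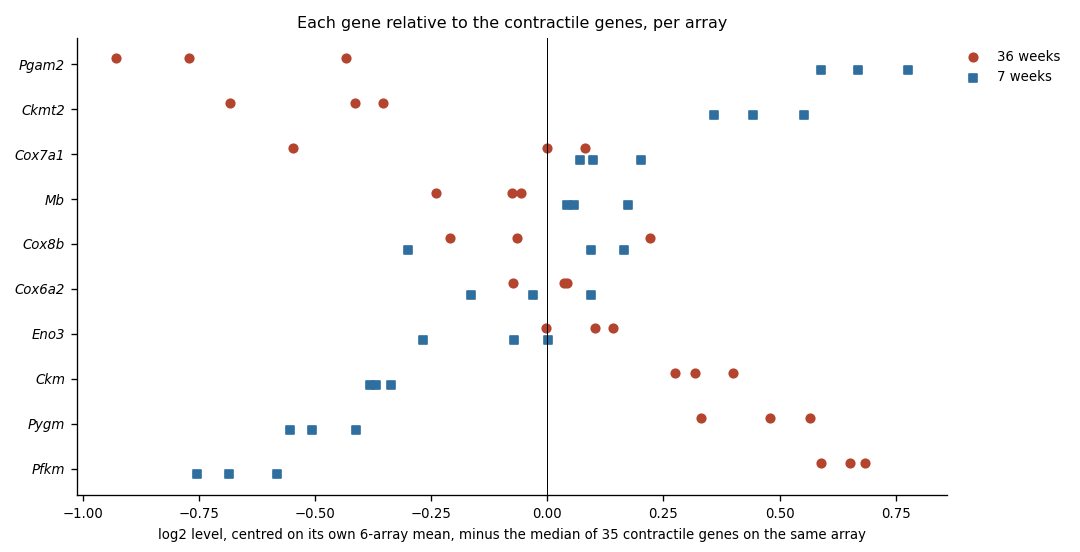
Relative level of each of the 10 genes on each array (log2 scale): the gene's own 6-array mean and the median of 35 contractile genes on that array have both been subtracted, and 36 weeks (circles) stand above 7 weeks (squares) in each row. Pgam2 and Ckmt2 lie lower at 36 weeks, Ckm, Pygm and Pfkm lie higher, and Eno3 and the 3 subunits of complex IV overlap.

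The other genes of the same pathways were called in both directions. The lists below include counterpart genes already described. For these and the later lists, the shares over all 8555 tested genes were 17.6% lower and 17.5% higher. Of 14 tested glycolytic genes outside the muscle set 5 were lower and 5 higher, with a median log2 difference of -0.11. Ldhb, the heart-type lactate dehydrogenase subunit, had a log2 difference of -0.77 ± 0.06, and Pgk1, phosphoglycerate kinase, had -0.40 ± 0.08. Aldoc, the brain aldolase, was higher by 1.73 ± 0.06, and Eno2 by the amount given above. Of 10 tested genes of glycogen handling 2 were lower and 0 higher, with the lower ones near the 17.6% over all tested genes. These were Ugp2, which makes the glucose donor for glycogen (-0.35 ± 0.08), and Phkb, a regulatory subunit of the kinase that activates glycogen phosphorylase (-0.63 ± 0.17). Gys1, the muscle glycogen synthase, did not pass (0.26 ± 0.18, adjusted p = 0.3).

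Of 15 other tested genes of complex IV and its assembly 7 were lower and 1 higher, with a median of -0.23. Over all tested genes 17.6% were lower and 17.5% higher. Cox6c had a log2 difference of -0.67 ± 0.07 and Cox5b of -0.49 ± 0.08. The member that was higher was Cox4i2, a lung-enriched form of subunit 4, by 0.54 ± 0.17, a call lost with quantile normalization and with median centring. The calls of Cox4i1 and Cox6b1 were also lost with quantile normalization, where Cox6b1 changed sign to 0.00. Of 8 tested genes of creatine and adenylate metabolism 5 were lower and 1 higher. Ckmt1 at its brighter probe set and Slc6a8, the creatine transporter, had -0.54 and -0.38 ± 0.09. The other probe set of Ckmt1 was called higher, by 0.44 ± 0.15. Gatm, which makes the precursor of creatine, was higher by 0.67 ± 0.18.

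Of 4 tested myogenic regulators 2 were lower, Mef2c with a log2 difference of -0.80 ± 0.12 and Mef2a with -0.61 ± 0.11, transcription factors that muscle shares with neurons and other cells. Mef2d and Six4 did not pass, with 0.19 and -0.24. The muscle-determining factors Myod1, Myog, Myf5 and Myf6 were all under the filter. Of 9 tested oxidative regulators 2 were lower and 1 higher. Ppargc1a, a coactivator that drives mitochondrial genes in muscle and brown fat, had -0.76 ± 0.13 (adjusted p = 0.00155) and Esrrb, a nuclear receptor, -0.98 ± 0.18, whereas Ppargc1b, a related coactivator, was higher by 0.73 ± 0.12.

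Cox7a1 and Cox8b are also abundant in brown fat, so markers of that tissue were set beside them. Of 5 tested brown fat genes 2 were higher and 1, Ppargc1a, lower. Ucp1, the uncoupling protein of brown fat, had signals of 4289, 3882 and 3344 at 36 weeks, against 175.3, 239.3 and 79.0 at 7 weeks. Its log2 difference was 4.25 ± 0.29 (adjusted p = 1.75e-06), the opposite direction to Cox7a1 and Cox8b. The 7-week mean of Ucp1, 164.5, was under the filter signal, so it was tested only through its 36-week signals. Cidea, a lipid droplet protein, was higher by 1.03 ± 0.25, while Elovl3 and Dio2 did not pass, with 0.45 and 0.25. The summed signal of the brown fat list was 8649 to 10217 at 36 weeks and 5158 to 5635 at 7 weeks, and its part in the values of Cox7a1 and Cox8b was not tested. Of 4 tested white fat genes 2 were higher, Fabp4, a fatty acid carrier, by 1.30 ± 0.13 and Adipoq, adiponectin, by 0.87 ± 0.20, while Retn and Lpl did not pass, with 0.32 and -0.18. Of 8 tested bone genes 4 were lower, with Ibsp and Dmp1, matrix proteins of bone cells, at -3.02 and -1.35. The 36-week mean of Ibsp, 196, was under the filter signal, so it was tested only through its 7-week signals. Among the 8 bone genes 1 was higher, Col1a1, the main collagen of bone, by 0.53 ± 0.12.

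The genes whose pattern over the 6 arrays was most like the mean of the 10 were found by the root mean square distance between centred log2 profiles, among 8545 other tested genes. The nearest was Col3a1, a collagen of loose connective tissue, at a distance of 0.04, with a log2 difference of -1.57 ± 0.09. A dimmer probe set of Col3a1 did not pass (adjusted p = 0.179). Next were Skp1, an adaptor of ubiquitin ligases, at 0.06, then Acta1 at 0.08, Myh4, the fastest myosin heavy chain, at 0.09, and Smpx, a small muscle protein linked to human deafness, at 0.09. The 10 genes themselves lay between 0.10 (Cox6a2) and 0.72 (Pgam2) from their own mean.

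Because the genes fell together, the promoter windows that RefSeq gives for them (GRCm38.p6, 250 bases before to 50 after the annotated start) were read for short motifs. Windows were found for 9 of the 10 genes, 14 windows in all, since Pfkm has 4 annotated starts and Mb 3. The windows of 4 genes are shown 5′ to 3′ on the gene's strand, with every E-box (CANNTG, the core bound by myogenic factors) in capitals. They were chosen for their falls: Pgam2 fell 8.34-fold, Pygm 1.53-fold, and Cox7a1 and Cox8b 3.69-fold and 2.99-fold. They lie at chr11:5803747-5804046 (- strand), chr19:6384158-6384457 (+ strand), chr7:30183921-30184220 (+ strand) and chr7:140900397-140900696 (- strand).
Pgam2: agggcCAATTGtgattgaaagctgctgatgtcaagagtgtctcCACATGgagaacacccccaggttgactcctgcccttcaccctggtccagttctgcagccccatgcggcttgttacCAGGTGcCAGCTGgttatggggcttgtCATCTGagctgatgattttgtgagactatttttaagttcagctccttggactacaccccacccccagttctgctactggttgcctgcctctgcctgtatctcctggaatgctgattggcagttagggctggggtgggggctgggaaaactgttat
Pygm: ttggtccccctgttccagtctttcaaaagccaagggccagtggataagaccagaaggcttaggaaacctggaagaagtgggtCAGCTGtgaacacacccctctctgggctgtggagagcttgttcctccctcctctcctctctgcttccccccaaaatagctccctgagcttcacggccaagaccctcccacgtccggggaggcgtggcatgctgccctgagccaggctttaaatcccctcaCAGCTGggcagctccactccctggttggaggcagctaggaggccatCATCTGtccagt
Cox7a1: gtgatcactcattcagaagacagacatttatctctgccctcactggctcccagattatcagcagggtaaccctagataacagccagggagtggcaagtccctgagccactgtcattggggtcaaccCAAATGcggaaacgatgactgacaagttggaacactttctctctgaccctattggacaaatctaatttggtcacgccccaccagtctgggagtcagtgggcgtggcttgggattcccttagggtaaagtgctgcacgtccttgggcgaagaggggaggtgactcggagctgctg
Cox8b: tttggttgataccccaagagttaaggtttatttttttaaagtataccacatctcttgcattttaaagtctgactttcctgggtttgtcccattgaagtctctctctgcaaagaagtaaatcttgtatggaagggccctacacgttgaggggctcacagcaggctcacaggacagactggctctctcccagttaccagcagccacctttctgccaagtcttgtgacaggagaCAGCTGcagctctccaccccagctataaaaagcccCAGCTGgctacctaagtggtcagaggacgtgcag

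The E-box with the centre GC (CAGCTG, the same on both strands and part of the CANNTG count) was present in at least 1 window of 7 of the 9 genes, Ckm, Ckmt2, Pgam2, Eno3, Pygm, Mb and Cox8b. It was in 8 of the 14 windows, 2 of them overlapping windows of Mb, and in 16.3% of all 32851 promoter windows in the table. The windows of Pygm and Cox8b held it at 2 places each. Those of Cox7a1 and Pfkm did not hold these letters. GC content ran from 36.7% to 64.7% over the 14 windows, and its median over all windows was 52.7%. The general CANNTG was in a window of all 9 genes, in 13 of the 14 windows, and in 72.3% of all windows. Counts of genes take any window of a gene, so they are not like for like with shares of windows. TATAAA was found, on either strand, in 1 of the 9 genes, Cox8b, and in 13.6% of all windows. The letters AAGGTCA, bound by estrogen-related receptors, were found in none of the 9 genes and in 4.72% of all windows. The MEF2 consensus, which allows several letters at most positions and was searched on both strands, was matched in 1 of the 9 genes, Pgam2, at base 171 of the window shown, and in 3.19% of all windows. The CArG box, searched likewise, was in none of the 9 genes and in 1.63% of all windows. The letters GGGCGG of a GC box were in 1 of the 9 genes, Ckmt2, and in 35.7% of all windows.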

How the data were processed

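Per the labels' protocols, total RNA of 3 cochlea samples at 36 weeks and 3 at 7 weeks was isolated with TRIzol, converted to biotin-labelled cRNA and hybridised to Affymetrix arrays. The deposited values are intensity values, linear probe-set signals that had been scaled: from the values, the mean after leaving out 2% at each end ran from 1490.5 to 1493.4 over the 6 arrays. The summarising software and any genome build of the values are not given in the sources used here. Gene symbols came from GEO's annotation of the platform: 20380 probe sets had 1 symbol, 691 several and 1555 none, and only the first kind was used.

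All tests used log2(signal + 50), a scale on which the changes of dim probe sets come out too small. The 13575 probe sets with a mean signal above the 40th percentile (593.6) were fitted with limma 3.58.1 in R 4.3.3 (lmFit, eBayes with intensity trend, two-sided, unpaired), with Benjamini-Hochberg adjustment over all of them and a threshold of 0.05. A gene was represented by its brightest tested probe set. The test was tried on simulated data. Figures used matplotlib 3.10.9 in Python 3.11.15.

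The members and lists were chosen with earlier results of these data known. Named were all members and counterparts, the 2 members of each other list with the smallest p per direction among those past the test, all of a list of 5 or fewer tested genes, and the 5 nearest profiles. Gys1, Atp2a2, Cox4i1, Cox6b1 and genes under the filter on low signals were named after their values were seen. The promoter search first used a narrower MEF2 pattern, which was widened to the full consensus after the sequences were seen. Alternatives were offsets of 1 and 16, quantile normalization, median centring, other filters, no trend, the replicate block, each array left out, a gene's probe sets averaged, and a 1.5-fold minimum in all 9 pairs.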

Additional observations from a re-analysis of the deposited data

How the results depend on the processing

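The members, their log2 differences and the counts were recomputed under each alternative. Of the 10 genes, 9 (all but Pfkm) had the same direction and stayed past the test in 14 of 14 settings of the limma fit at their brightest probe set, and Pfkm in 7 of the 14. With the replicate block all 10 genes were past the test, so it changed none of their calls, and 4375 probe sets were called, against 4665 without it. The numbers share only a label, since same-numbered arrays of the 2 ages deviated from their age means with correlations of 0.05, -0.01 and -0.00. None of the 10 genes changed direction. Of the 13 ratios over counterparts, Pfkm over Pfkl did so, to -0.35, when each counterpart was measured by its next brightest tested probe set. That alternative was chosen after seeing the data, and under it all 13 were lower. Under the other alternatives no ratio changed direction, and the median of the 10 genes relative to the contractile genes stayed between -0.07 and 0.08. With a 1.5-fold minimum in all 9 pairs, a rule with no test, 8 of the 10 genes counted, since Pygm and Pfkm reached only 1.39-fold and 1.09-fold in their closest pair. By the same rule 44 genes of the other lists were lower and 15 higher, against 67 and 26 with the test. The share of all tested genes that meet the 1.5-fold rule is not given, so its counts have no background beside them. With the mean of all probe sets, 9 of 10 genes passed, because Mb did not. Over settings that left out 1 array, the number of genes past the test was 9 to 10. Median centring moved the median of all tested probe sets by -0.10 on the log2 scale, and the median of the 10 genes was then -1.64. It changed the share of lower probe sets among all calls to 64.0%, against 51.4%. Pgam2 and Cox7a1 were dim at 36 weeks, and with an offset of 1 their log2 differences were -3.07 and -1.90, against -2.94 and -1.83 with an offset of 50.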
